A study of Homo sapiens with 12 samples.

Results

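The genes described here encode the proteins of the mitochondrial ribosome, the respiratory chain with the ATP synthase, and the protein import machinery of mitochondria. Members were cassette exon events listed in all 12 libraries whose middle exon matches, on the same strand, an annotated exon of a protein-coding gene with a symbol starting with MRPL, MRPS, NDUF, UQCR, COX, ATP5, TIMM, TOMM or SDH. The rule leaves out 1 gene by name. It found 99 events on 88 exons of 62 genes, out of 4992 events listed in all 12 libraries. The rule itself uses no measured value beyond listing, but members were chosen with earlier results of these data known. Of the 99 events, 68 on 62 exons of 47 genes had at least 10 isoform-specific reads in every library, against 2695 of all events, and only these were tested for inclusion.

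All RNA was from MCF10A, an established line of human mammary epithelium that does not form tumours, grown with hydrocortisone, cholera toxin, insulin and epidermal growth factor. The line stably carried the empty vector MSCV, a wild-type TIP60 construct that resists the siRNA (*WT-TIP60), or a resistant construct whose product is catalytically dead (*KD-TIP60). KAT5 encodes TIP60, an enzyme that acetylates lysines. Cells of each line were transfected with a control siRNA or one against TIP60 and collected 72 h later, which gave 6 groups of 2 libraries. The labels do not say that the libraries of a group came from separate cultures, so that p-values measure the spread between these libraries, which may be technical.

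Mitochondria translate a small set of membrane proteins of the respiratory chain on their own ribosome, whose proteins (MRPL for the large and, with some exceptions, MRPS for the small subunit) are made from nuclear genes. Complex I (NDUF genes) and complex II (SDH genes) pass electrons to complex III (UQCR genes) and on to complex IV (COX genes), and the ATP synthase (ATP5 genes) uses the resulting proton gradient. The nuclear-encoded subunits enter through the TOMM complex of the outer membrane and the TIMM complexes of the inner membrane. A cassette exon is spliced into some transcripts and skipped in others, and its inclusion level, between 0 and 1, says how much of the event's RNA carries it.

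The sequences that follow belong to exons named in the results and to member exons that share a boundary, in GRCh38 from GENCODE 29. Exon 3 of MRPL33 had the largest siRNA difference of the 68 events in the average of the 3 lines, and lies at chr2:27774424-27774530 on the plus strand (107 nt, coding). In the lines for MRPL33 and NDUFB6, capitals mark the cassette exon, with 19 bases of the neighbouring exons on each side. The exon of NDUFB6 (chr9:32570960-32571052, minus strand, 93 nt, coding) is shown because, of the tested events, it was the one most above in the libraries numbered 2 over those numbered 1. In the other lines, 1 boundary of the exon is shared by 2 member exons, and capitals mark the bases that only the longer exon holds.
MRPL33 with exon 3: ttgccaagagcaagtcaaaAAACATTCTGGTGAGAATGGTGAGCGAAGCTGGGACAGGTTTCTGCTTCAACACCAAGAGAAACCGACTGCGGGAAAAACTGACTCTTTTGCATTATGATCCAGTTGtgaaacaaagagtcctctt
MRPL33 without exon 3: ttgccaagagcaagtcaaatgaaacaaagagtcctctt
NDUFB6: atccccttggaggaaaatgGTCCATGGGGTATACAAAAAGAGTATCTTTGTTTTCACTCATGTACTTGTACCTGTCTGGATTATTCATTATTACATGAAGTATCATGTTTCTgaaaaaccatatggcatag
SDHD: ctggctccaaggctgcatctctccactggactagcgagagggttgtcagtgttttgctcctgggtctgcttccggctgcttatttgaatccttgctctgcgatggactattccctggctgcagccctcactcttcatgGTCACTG
COX7A2: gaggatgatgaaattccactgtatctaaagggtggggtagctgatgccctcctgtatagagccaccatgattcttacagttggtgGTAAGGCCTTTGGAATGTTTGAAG
MRPL52: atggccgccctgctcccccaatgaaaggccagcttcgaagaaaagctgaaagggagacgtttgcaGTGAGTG

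The SDHD exon lies at chr11:112088867-112089011 on the plus strand (145 nt, of which the shorter exon lacks the last 7). The COX7A2 exon lies at chr6:75240277-75240385 on the minus strand (109 nt, of which the shorter lacks the last 24). The MRPL52 exon lies at chr14:22833418-22833489 on the plus strand (72 nt, of which the shorter lacks the last 7). Events of this longer MRPL52 exon had too few reads to be tested for inclusion. In all 3, the extra bases begin with GT, the letters with which most introns begin. NDUFC2 has a further pair, at the other end: its exon of 144 nt starts 69 bases before the exon of 75 nt.

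Skipping exon 3 of MRPL33, a protein of the large ribosomal subunit, changes the reading frame. In the principal transcript, 41 coding bases precede exon 3, exon 3 holds 107, and the last exon contributes 47, which gives a coding sequence of 195 nt. In the annotated transcript without exon 3, the last exon is entered in another frame and contributes 121 coding bases, for a coding sequence of 162 nt.

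The libraries numbered 1 held 1983221 to 2280488 event reads (reads fitting an annotated form), and those numbered 2 held 1277953 to 1566296. KAT5 reads of the form with its cassette exon were 5.31 to 17.2 RPM (scaled to the total of event reads in the library) under control siRNA and 0 to 3.95 under TIP60 siRNA, lower in each of the 6 pairs of a line and replicate number. Under control siRNA, the form without it had 2291 and 93.0 RPM in wild-type TIP60 cells (libraries numbered 1 and 2). It had 988 and 35.1 RPM in catalytically dead TIP60 cells and 8.38 and 0.73 RPM in empty-vector cells. The part of this split in the comparisons of constructs was not tested. Events of 6 of 13 epithelial marker genes were listed, with 2721 to 5201 RPM in sum. Of the markers of other cell types, events were listed for 3 of 8 mesenchymal genes (FN1, ZEB1 and ZEB2; 21.9 to 2490 RPM in sum), 1 of 6 immune genes (LYZ; 0 to 31.4 RPM) and none of 3 endothelial genes. The mesenchymal range is wide; its part in the results was not tested.

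By the deposited inclusion level, most member exons were nearly always included or nearly always skipped. The mean level over 12 libraries was over 0.9 in 34 of 68 events, under 0.1 in 17 and in between in 17, or 50%, 25% and 25%. Over all tested events these shares were 38.3%, 15.4% and 46.3%. Reads did not always match the level. Both events of the 287-nt 5′ UTR exon of ATP5MD had a mean level under 0.1. Their reads were 424 with the exon and 304 without it, and 288 with it and 716 without it. The 62 tested member exons had a median length of 110 nt, against 126 nt over all events, and 28 of them (45.2%) had a length divisible by 3, against 56.1%. By annotation 47 were coding (75.8%, against 71.3%), 7 were partly coding and 8 lay in the 5′ UTR. The lists are small, and no test was run on these shares.

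By complex, levels over 0.9 were held by 7 of 17 events of the large ribosomal subunit, 4 of 5 of the MRPS genes (MRPS18A among them), 9 of 15 of complex I and 5 of 10 of complex II with its assembly factors. They were held by 1 of 3 events of complex III, 5 of 8 of complex IV with its assembly factors, 2 of 8 of the ATP synthase, 1 of 1 of inner membrane import and 0 of 1 of outer membrane import. NDUFB4, an accessory subunit of complex I, was at 1.00 in every library. At the other end, the 130-nt exon of SDHD, which encodes a membrane anchor of complex II, had 1 read with the exon and 3682 without it over the 12 libraries. The 81-nt exon of MRPL3, of the large subunit, had 12 reads with it and 4060 without it. The 72-nt 5′ UTR exon of COX14, a complex IV assembly factor, had 0 and 2166. For TOMM7, a small subunit of the outer membrane translocase, the 137-nt exon had 1 and 2873, and for UQCRB, a subunit of complex III, the 90-nt exon had 70 and 15365.

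Some members with a mean level between 0.1 and 0.9 had few reads of the skipped form, at about the share found in the whole series. The deposited level is a model estimate that also uses reads fitting both forms. Of the 17 events in between, 2 had no read without the exon in any library and 5 had at most 5 such reads over all 12 (29.4%, against 26.5% of such events in the whole series). In NDUFA5, an accessory subunit of complex I, the 117-nt exon had 10 to 79 reads with the exon per library and none without it, at a level of 0.37 to 0.69. The interval of the level ran from 0.02 to 0.8 in the empty-vector library numbered 2 under TIP60 siRNA. The 585-nt 5′ UTR exon of MRPL55, of the large subunit, had in 1 of its 2 events 707 reads with the exon and 0 without it, at 0.45 to 0.69. In the other event, whose upstream exon starts at another place, it had 1010 and 67, at 0.22 to 0.70. For 13 of the 68 events (19.1%, against 35.8% of all events) the level and the share of isoform-specific reads with the exon differed by over 0.1.

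The replicate sets gave different levels for a number of members, and each set held all 6 groups. The set means differed by over 0.1 in 13 of 68 events, 7 higher in the libraries numbered 1 and 6 higher in those numbered 2, against 22.7% of all tested events. The levels of the sets did not overlap in 21 of the 68, against 21.9% of all. Reads fitting neither form of an event made up 50.1% to 53.2% in the libraries numbered 1 and 64.5% to 65.7% in those numbered 2; the part of this in the split was not tested.

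Among the tested events the widest split was in ATP5MD, which encodes a small subunit of the ATP synthase. The level of its 196-nt 5′ UTR exon, in 1 of the 2 events that hold it, was 0.96 to 0.98 in all 6 libraries numbered 1. It was 0.22 to 0.38 in all 6 numbered 2. Reads without the exon numbered 0 in each library numbered 1 and 12 to 32 in each numbered 2. In the other event the same exon stood at 0.11 to 0.24 in the libraries numbered 1 and 0.05 to 0.49 in those numbered 2, so that the sets overlapped there. Over the 12 libraries that event had 2260 reads with the exon and 304 without it. Its low modelled level was thus not matched by its isoform-specific reads.

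In NDUFB6, a subunit of the membrane arm of complex I, the exon shown above went the other way. Its level was 0.25 to 0.46 in the libraries numbered 1 and 0.95 to 0.97 in those numbered 2. Reads without it were few in both sets, 0 or 1 and then 3 to 7. Reads fitting both forms numbered 242 to 454 in the libraries numbered 1 and 44 to 82 in those numbered 2. The split in the level thus came with a split in the reads that fit both forms, while the reads without the exon stayed rare.

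The 138-nt exon of SDHD had levels of 0.71 to 0.93 in the libraries numbered 1 and 0.38 to 0.61 in those numbered 2. The 145-nt exon, which differs by the 7 capital bases of its sequence, stood at 0.98 or 0.99 in every library. Both events share the reads of the skipped form, 0 to 6 per library. The model of the shorter exon's event holds only the shorter and the skipped form. Both exons hold the same bases except the 7 capital ones, so that reads over the shared bases can come from either. The level of the shorter exon thus does not tell the shorter from the longer one. In COX7A2, a complex IV subunit, the longer exon stood at 0.81 to 0.98 and the shorter one at 0.99 or 1.00. Both COX7A2 events also share the reads of the skipped form, 15 over all libraries. Reads with the exon numbered 2162 for the longer and 13787 for the shorter. Those over the shared bases fit either exon, so that the level of the longer one does not show use of its extra bases.

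SDHAF2, the factor that attaches the flavin cofactor to complex II, had a 224-nt coding exon at 0.79 to 0.98 in the libraries numbered 1 and 0.52 to 0.67 in those numbered 2. Here the reads of the skipped form moved as well, from 0 to 15 in the former to 21 to 40 in the latter. Of the large subunit, the 146-nt exon of MRPL47 stood at 0.91 to 0.96 and then 0.77 to 0.86, with 0 to 2 reads without it. Among events with too few reads to be tested, TIMM9, a chaperone of the space between the membranes, was at 0.02 to 0.09 in the libraries numbered 1 and 0.87 to 0.95 in those numbered 2. Its 88-nt 5′ UTR exon had 0 reads with it in the former and 0 without it in the latter. The scatter of set means shows the tested events.

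**Figure D1:**
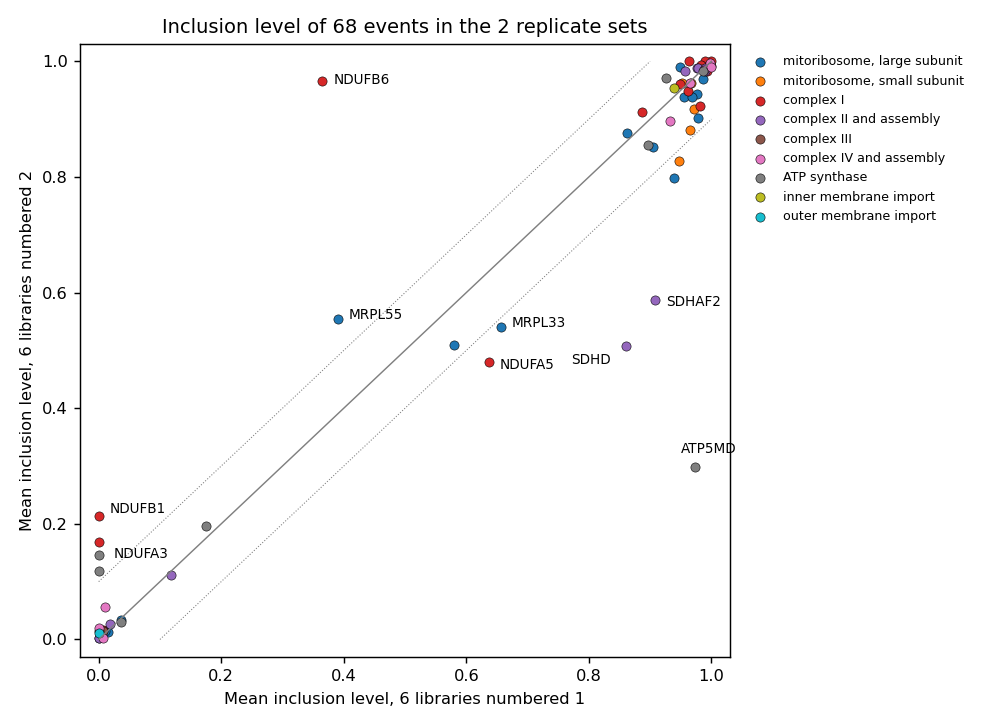
Mean inclusion level of the 68 tested events in the 6 libraries numbered 1 (x axis) and the 6 numbered 2 (y axis), coloured by complex; the solid line marks equal levels and the dotted lines a difference of 0.1. NDUFB6 lies far above the diagonal and ATP5MD, SDHAF2 and SDHD far below it.

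None of the 68 events changed inclusion past the threshold of the test in any of the 8 comparisons (limma, adjusted p under 0.05). For TIP60 siRNA against control siRNA the share of all tested events past it was 0.0371% in empty-vector cells, 0.0% in wild-type TIP60 cells, 0.0371% in catalytically dead TIP60 cells and 2.15% in the average of the 3 lines. With a term for the replicate number it was 0.148%, 0.148%, 0.371% and 4.27%, and the count of members stayed 0 in each. A quasi-binomial model of the isoform-specific reads called 0 members as well, with and without that term. At an unadjusted p under 0.05 in limma, 3 members were called in empty-vector cells (6.6% of all events), 2 in wild-type TIP60 cells (4.3%), 1 in catalytically dead TIP60 cells (6.75%) and 7 in the average (12.3%).

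Across members the siRNA differences lay around 0. In the average of the 3 lines 30 were below 0 and 33 above, with a median of 0, against a median of -0.0067 over all tested events. An average difference over 0.1 in size was found in 1 of 68, exon 3 of MRPL33, against 9.13% of all. Mean levels over 0.9, with little room to rise, and under 0.1, with little room to fall, were more frequent among members. The part of this in the comparison with all events was not tested. The MRPL33 event was also the only member lower in all 6 pairs, against 9.46% of all events, while 0 members and 2.34% of all events were higher in all 6. It was the only member whose TIP60-siRNA libraries lay at least 0.1 below both control libraries, which it did in empty-vector and in catalytically dead TIP60 cells. Over all events 2.6% did so in empty-vector, 2.19% in wild-type TIP60 and 3.41% in catalytically dead TIP60 cells, and 2.3% were so separated, in either direction, in at least 2 lines.

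In empty-vector cells the level of MRPL33 exon 3 was 0.83 and 0.60 under control siRNA and 0.50 and 0.45 under TIP60 siRNA. In wild-type TIP60 cells it was 0.82 and 0.56, then 0.60 and 0.41. In catalytically dead TIP60 cells it was 0.70 and 0.74, then 0.49 and 0.48. Each TIP60-siRNA library lay below the control library of its line and number, and the groups overlapped only in wild-type TIP60 cells. Reads without the exon numbered 4 and 11 against 19 and 12 in empty-vector cells. They numbered 3 and 3 against 8 and 9 in wild-type TIP60 cells, and 10 and 6 against 19 and 16 in the catalytically dead line. Their share of isoform-specific reads was higher in all 6 pairs. Over the summed libraries it was 3.29% (37 against 1088 reads with the exon) under control siRNA and 9.55% (83 against 786) under TIP60 siRNA. Reads fitting both forms, per read with the exon, were 0.549 to 1.014 under control siRNA and 0.818 to 1.47 under TIP60 siRNA. This ratio also rose in each of the 6 pairs, and its part in the modelled level was not tested.

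The average difference for MRPL33 was -0.22 (SE 0.062, 95% interval -0.366 to -0.0735), with an unadjusted p of 0.00932 and an adjusted p of 0.171 in limma. With the replicate term the SE was 0.0466 and the adjusted p 0.0616. The difference was -0.253 within the libraries numbered 1 and -0.187 within those numbered 2. On the share of isoform-specific reads in place of the modelled level it was smaller, -0.0668 (adjusted p = 0.34). By line the difference was -0.24 in empty-vector cells (adjusted p = 0.761), -0.185 in wild-type TIP60 cells (adjusted p = 1) and -0.235 in catalytically dead TIP60 cells (adjusted p = 0.8). The effect differed between wild-type TIP60 and empty-vector cells by 0.055 (95% interval -0.304 to 0.414), which leaves room for a difference as large as the effect itself. Event reads of MRPL33 differed by -0.12 (log2, SE 0.38).

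**Figure D2:**
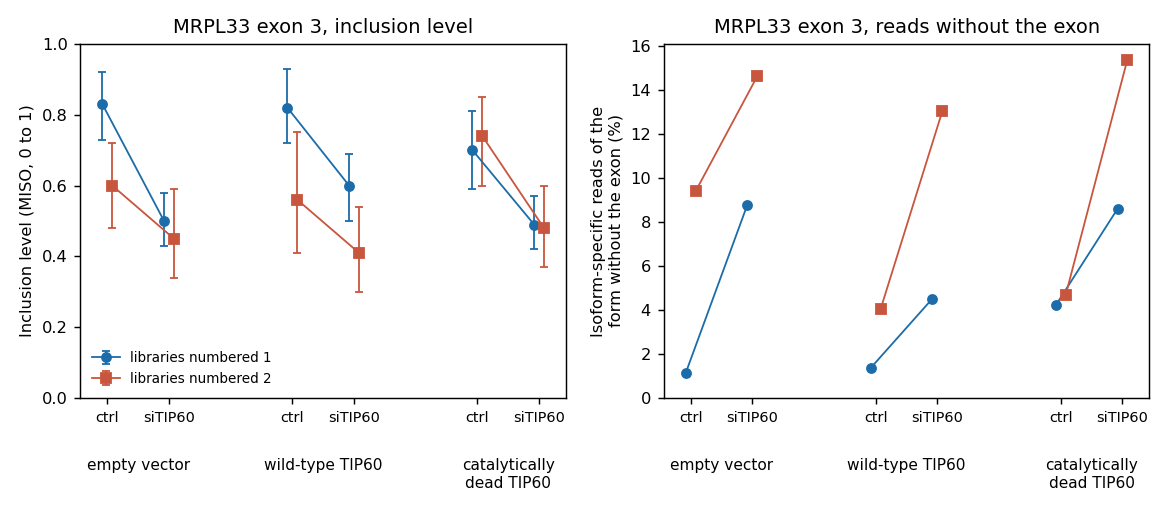
MRPL33 exon 3 in the 12 libraries: left, inclusion level with its deposited interval; right, reads of the form without the exon as percent of isoform-specific reads, with lines joining the libraries of 1 cell line and replicate number. In all 6 pairs the level is lower and the share of reads without the exon is higher under TIP60 siRNA.

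Other members of small p differed by little. NDUFA12, an accessory subunit of complex I, had its 88-nt exon at 0.96 and 0.96 under control siRNA and at 0.91 and 0.92 under TIP60 siRNA in wild-type TIP60 cells, a difference of -0.045 (SE 0.0124, adjusted p = 0.679). For empty-vector cells the levels were 0.97 and 0.97 against 0.94 and 0.97. The catalytically dead line had 0.95 and 0.98, then 0.96 and 0.96. COX5A, a nuclear-encoded subunit of complex IV, had its 117-nt exon at 0.95 to 0.99 under control siRNA and at 0.95 or 0.96 under TIP60 siRNA, with an average difference of -0.0183 (SE 0.0063, adjusted p = 0.264). Both exons were above 0.9 in each library.

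MRPS18A, named for the small ribosomal subunit but placed in the large one in structures of the ribosome, had its 70-nt exon at 0.93 to 0.97 under control siRNA and 0.94 to 0.99 under TIP60 siRNA (average difference 0.0217, SE 0.0083, adjusted p = 0.329). MRPL53 of the large subunit, whose exon is also annotated to CCDC142, moved by -0.0083 (SE 0.0034, adjusted p = 0.388). MRPL2, a core protein of the large subunit, had its 74-nt exon at 0.74 and 0.84 under control siRNA in catalytically dead TIP60 cells and at 0.90 and 0.90 under TIP60 siRNA, a difference of 0.11 (SE 0.0329, adjusted p = 0.432). In the other lines it stood at 0.85 to 0.89 and then 0.87 to 0.92, so that the lowest levels of MRPL2 were the 2 controls of the catalytically dead line. The average difference over the lines was 0.0483 for MRPL2 (SE 0.019, adjusted p = 0.347) and also 0.0483 for the 1095-nt exon of NDUFV3 (SE 0.0202, adjusted p = 0.398), an accessory subunit of complex I.

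Of the members named for a single line, the 150-nt exon of MRPL45 had 0.94 and 0.86 against 0.81 and 0.81 in empty-vector cells (difference -0.09, SE 0.0424, adjusted p = 0.797) with 5 reads without the exon in all 12 libraries. The 88-nt exon of MRPS25 differed by -0.035 and the 94-nt exon of MRPL11 by 0.02 in wild-type TIP60 cells, each with an adjusted p of 1. In catalytically dead TIP60 cells the exon of NDUFV3 stood at 0.87 and 0.91 and then at 0.95 and 0.96 (difference 0.065, SE 0.0351, adjusted p = 0.94). There the 80-nt exon of SDHAF3, an assembly factor of complex II, differed by 0.05 and the 287-nt 5′ UTR exon of ATP5MD by -0.165 (SE 0.154), each with an adjusted p of 1. The ATP5MD value rests on the libraries numbered 2, at 0.53 and 0.20, since those numbered 1 stood at 0.00. In empty-vector cells the 85-nt exon of COX7A2 differed by 0.01, and in catalytically dead TIP60 cells the 72-nt exon of COX14 by -0.01.

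**Figure D3:**
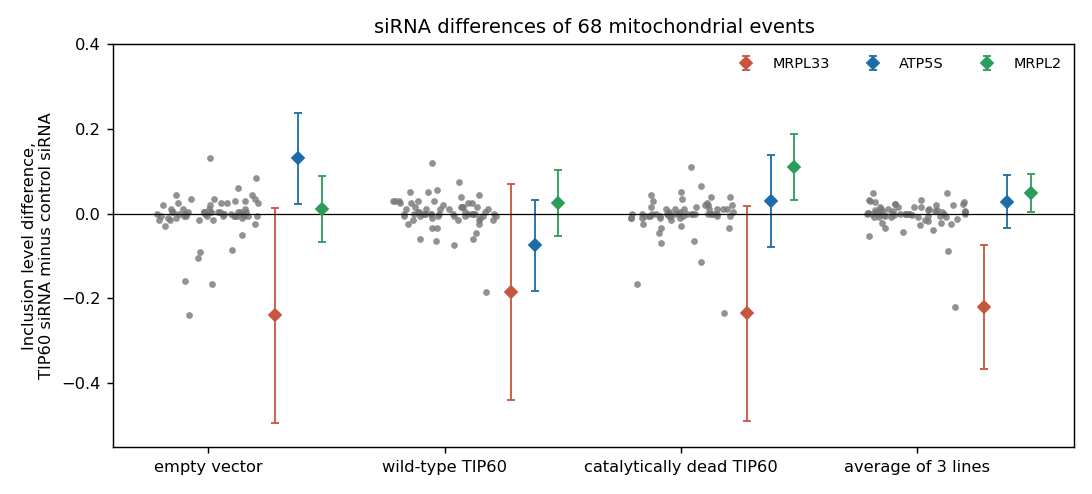
Difference in inclusion level, TIP60 siRNA minus control siRNA, for the 68 events (grey points) in each line and in the average, with MRPL33, ATP5S and MRPL2 repeated as diamonds with their 95% intervals. Most points lie near 0, and MRPL33 is below 0 in each column.

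The comparisons of the resistant constructs asked whether the siRNA effect, or the level under control siRNA, differed from that in empty-vector cells. In each of these 4 comparisons 0 of 68 members and 0.0% of all events passed the threshold in limma, with and without the replicate term. At an unadjusted p under 0.05, 1 member was called for the difference of siRNA effects between wild-type TIP60 and empty vector (1.71% of all events) and 0 for that between catalytically dead TIP60 and empty vector (1.34%). Under control siRNA, 1 was called for wild-type TIP60 against empty vector (1.6%) and 3 for catalytically dead TIP60 against empty vector (0.853%).

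The member called for the difference of siRNA effects was ATP5S, also known as coupling factor B of the ATP synthase. Its 172-nt coding exon stood at 0.82 and 0.78 under control siRNA and 0.91 and 0.95 under TIP60 siRNA in empty-vector cells, without overlap (difference 0.13, SE 0.0457, adjusted p = 0.576). In wild-type TIP60 cells it stood at 0.97 and 0.84 and then at 0.84 and 0.82, and in catalytically dead TIP60 cells at 0.90 and 0.86 and then 0.94 and 0.88. The siRNA effects in wild-type TIP60 and empty-vector cells differed by -0.205 (SE 0.0646, adjusted p = 1). At most 9 reads per library showed the form of ATP5S without the exon. The next smallest p in this comparison belonged to MRPL45 (0.115, SE 0.0599) and NDUFA12 (-0.03, SE 0.0176), each with an adjusted p of 1. Under control siRNA the level of ATP5S was higher by 0.105 (SE 0.0457, adjusted p = 1) in wild-type TIP60 than in empty-vector cells.

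The 80-nt exon of SDHAF3 was at 0.19 and 0.12 in empty-vector cells under control siRNA, at 0.04 and 0.09 in wild-type TIP60 cells and at 0.08 and 0.07 in catalytically dead TIP60 cells. The differences from empty vector were -0.09 (SE 0.0308) and -0.08 (SE 0.0308), each with an adjusted p of 1 in limma, and both use the same control libraries. Under control siRNA the exon of MRPL2 was 0.08 lower in catalytically dead TIP60 than in empty-vector cells (difference -0.08, SE 0.0329, adjusted p = 1), and that of the 85-nt exon of COX7A2 0.01 higher (adjusted p = 1). The siRNA effects in catalytically dead TIP60 and empty-vector cells differed by 0.1 (SE 0.0465, adjusted p = 1) for MRPL2 and by -0.01 for COX7A2. The 75-nt exon of NDUFC2, an accessory subunit of complex I, had a difference of siRNA effects of -0.05 (SE 0.0268, adjusted p = 1) between catalytically dead TIP60 and empty-vector cells. The 123-nt exon of COX5A differed by 0.01 between wild-type TIP60 and empty-vector cells under control siRNA.

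Event reads were compared as a proxy of the level of the transcripts. They come only from the 3 exons of the event, are a share of all event reads of a library, and do not correct for exon length. In bulk RNA, fewer cells of a type and less RNA per cell cannot be told apart. In the average of the 3 lines the log2 difference in RPM (with 0.5 added) between TIP60 siRNA and control siRNA was above 0 in 88 of 99 events (88.9%), against 42.5% of all 4992 events. The median of the members was 0.29, against -0.1 over all events. Scaling by the median of ratios moved the median of all events by 0.11, to 0.01, and that of the members to 0.4. Without the empty-vector control library numbered 2 the median of the members was 0.18.

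No single member passed the threshold without the replicate term (limma), where 0.741% of all events did, and 10 of 99 members had an unadjusted p under 0.05, against 11% of all events. With the replicate term 21 members passed, 19 higher and 2 lower, against 16.8% of all events, 6.03% higher and 10.7% lower. The 19 came from 14 genes, and 4 of them are events of SDHD that share exons and reads. The count depended on single libraries: it was 6 to 26 when each of the 12 was left out with the term kept. It was 6 without the control library numbered 2 of the catalytically dead line and 11 without the one numbered 1. It was 8 and 13 without the wild-type TIP60 control libraries numbered 1 and 2, and 13 and 8 without the TIP60-siRNA libraries of that line. Of the 21 events, 6 from 4 genes (MRPL2, MRPL35, NDUFV1 and 3 events of SDHD) passed whichever library was left out. The sizes of the 21 differences moved by less than 1.5 times in these fits, and the highest adjusted p was 0.146. Within single lines the threshold was passed by 0 members and 0.0% of all events without the term. With it, 0 members passed, against 3.08% of all events in empty-vector cells, 0.02% in wild-type TIP60 cells and 2.84% in catalytically dead TIP60 cells. At an unadjusted p under 0.05 without the term, 3, 0 and 2 of 99 members were called in these lines, against 4.77%, 1.88% and 4.67% of all events.

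The shift of the members was present in each pair of libraries. In empty-vector cells 85 of 99 events were higher under TIP60 siRNA in the pair numbered 1 and 85 in the pair numbered 2. In wild-type TIP60 cells the counts were 89 and 69, and in catalytically dead TIP60 cells 80 and 79. The median difference of the members was 0.37 and 0.45 in empty-vector cells, 0.25 and 0.13 in wild-type TIP60 cells, and 0.19 and 0.29 in catalytically dead TIP60 cells. The median of all events in the same pairs lay between -0.23 and 0.04. Higher in all 6 pairs were 51 of the 99, against 12.1% of all events, and lower in all 6 were 2, against 18.7%. Some of the 99 events share exons and reads with others, so that these counts are not of independent events. Within the libraries numbered 1 the median of the members was 0.29 and within those numbered 2 it was 0.32. Counted by gene, 52 of 62 genes had a median above 0. The share over all genes of the series is not given here, and the share over all events was 42.5%.

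Members are abundant events, 50 of the 99 being in the highest of 4 equal classes of mean RPM. In that class the median difference was 0.28 for the members and -0.08 for the 1198 other events. In the lowest class it was 0.25 for 10 members and -0.15 for 1238 other events, and in the classes between them 0.21 and 0.43 for the members and -0.15 and -0.09 for the others. The median of the members was above that of the other events in each class, and the part of abundance in the shift was not tested.

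By complex the median difference was 0.38 for 26 events of the large ribosomal subunit, 0.25 for 5 of the MRPS genes (MRPS18A included), 0.22 for 27 of complex I, 0.4 for 11 of complex II with its assembly factors, and 0.42 for 3 of complex III. It was 0.33 for 10 events of complex IV with its assembly factors, 0.21 for 11 of the ATP synthase and 0.35 for 2 of outer membrane import. For 3 events of inner membrane import it was -0.18. The plot by complex shows the events past the threshold in every group but outer membrane import and the single complex I assembly factor.

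MRPL35, a protein of the large ribosomal subunit, had the largest rise. Its event reads in empty-vector cells were 137 and 32.1 RPM under control siRNA and 224 and 89.5 RPM under TIP60 siRNA. In wild-type TIP60 cells they were 117 and 35.9, then 206 and 79.5. The catalytically dead line had 110 and 46.6, then 241 and 86.9. Each pair rose, while the sets stood apart. The average log2 difference was 1.02, with an SE of 0.56 and an adjusted p of 0.623 without the replicate term, and an SE of 0.15 and an adjusted p of 0.00239 with it.

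Of the same subunit, MRPL2 rose by 0.8 (SE 0.15, adjusted p = 0.00641 with the replicate term), MRPL11 by 0.58 (adjusted p = 0.0462) and MRPL53 by 0.45 (adjusted p = 0.0191). With each library left out and the term kept, these were 0.68 to 0.92 for MRPL2, called in 12 of 12 fits, 0.44 to 0.71 for MRPL11, called in 3, and 0.39 to 0.51 for MRPL53, called in 6. Without the term MRPL2 was 0.46 without the TIP60-siRNA library numbered 2 of the catalytically dead line, and MRPL53 was 0.21 without the same library. The exon of the MRPL53 event is also annotated to CCDC142 on the same strand, so that its reads may come from that gene as well. MRPS18A rose by 0.63 (adjusted p = 0.0126 with the replicate term), or 0.53 to 0.74 with each library left out and the term kept.

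Of complex I, NDUFV1, the subunit that binds NADH, had 301 and 151 RPM under control siRNA and 387 and 321 RPM under TIP60 siRNA in empty-vector cells. The wild-type TIP60 line had 335 and 217, then 450 and 313, and the catalytically dead line 323 and 177, then 482 and 332. NDUFV1 rose in each pair, by 0.65 on average (SE 0.12, adjusted p = 0.00732 with the replicate term, 0.426 without). With the replicate term NDUFV3 rose by 0.47 (adjusted p = 0.0145) and NDUFA10, an accessory subunit, by 0.49 (adjusted p = 0.0366). With each library left out and the term kept, NDUFV3 was 0.39 to 0.54 and NDUFA10 0.39 to 0.59.

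Of complex II, SDHD rose in 4 events by 0.44 to 0.48 with the replicate term. In that of its 145-nt exon, reads were 947 and 738 RPM and then 1504 and 1062 in empty-vector cells, 1049 and 839 and then 1308 and 1057 in wild-type TIP60 cells, and 922 and 743 and then 1332 and 923 in catalytically dead TIP60 cells (log2 difference 0.45, SE 0.08, adjusted p = 0.00707). SDHC, the other membrane anchor, rose by 0.46 (adjusted p = 0.0233 with the replicate term) in the event of its 164-nt exon. Leaving out each library with the term kept gave 0.35 to 0.57 for SDHC. In the event of its 102-nt exon, which lacked the reads for an inclusion test, it differed by -0.4 (adjusted p = 0.458), and UQCRC2, a core protein of complex III, by -0.34 (adjusted p = 0.129). UQCRB of complex III rose in both of its events, by 0.43 and 0.42 (adjusted p = 0.016 and 0.0175); these share most of their reads.

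Of complex IV, COX5A had in the event of its 117-nt exon 514 and 414 RPM and then 772 and 638 in empty-vector cells. The values were 509 and 492 and then 723 and 709 in wild-type TIP60 cells, and 503 and 412 and then 566 and 617 in catalytically dead TIP60 cells. In each line both TIP60-siRNA libraries of COX5A lay above both control libraries. The log2 difference was 0.5 (SE 0.1, adjusted p = 0.00991 with the replicate term, 0.226 without). The other COX5A event past the threshold rose by 0.51 (adjusted p = 0.0228 with the term), or 0.43 to 0.6 with each library left out. COX7A2 rose by 0.39 (adjusted p = 0.044 with the term) in the event of its shorter exon, or 0.32 to 0.46 with each library left out. Of the ATP synthase, ATP5PD, a subunit of the peripheral stalk, rose by 0.95 (adjusted p = 0.0189), with 129 to 259 RPM in the libraries numbered 1 and 2.55 to 10.2 RPM, or 4 to 13 reads, in those numbered 2. With each library left out and the term kept the value for ATP5PD was 0.78 to 1.12 and passed in 8 of 12 fits, not in those without a wild-type TIP60 control library, the TIP60-siRNA library numbered 2 of that line or the control library numbered 2 of the catalytically dead line. Without the term it was 0.02 to 1.87, lowest without that last library.

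The events that fell were those of TIMM17B, a subunit of the inner membrane translocase, and of an exon shared by the readthrough gene NDUFC2-KCTD14 and KCTD14. TIMM17B had 7.45 and 5.84 RPM under control siRNA and 4.53 and 4.55 under TIP60 siRNA in empty-vector cells. It had 7.56 and 6.64 and then 3.20 and 2.003 in wild-type TIP60 cells, and 6.25 and 7.66 and then 2.63 and 0.782 in catalytically dead TIP60 cells. The TIMM17B groups did not overlap in any line, at a depth of 1 to 16 reads per library. Its log2 difference was -1.23 (SE 0.3, adjusted p = 0.0202 with the replicate term, 0.234 without). The event of NDUFC2-KCTD14 fell by 0.81 (SE 0.19, adjusted p = 0.0174), from 46.5 to 86.2 RPM under control siRNA to 28.7 to 48.0 under TIP60 siRNA, in 1 of its 2 events. That event held 0 reads with the exon, 1 without it and 1074 that fit both forms, so that its reads cannot be assigned to the readthrough transcript. Leaving out 1 library ended the call in 6 of 12 fits for TIMM17B and in 4 of 12 for NDUFC2-KCTD14, among them the fits without the control library numbered 2 of the catalytically dead line and without either wild-type TIP60 control library.

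**Figure D4:**
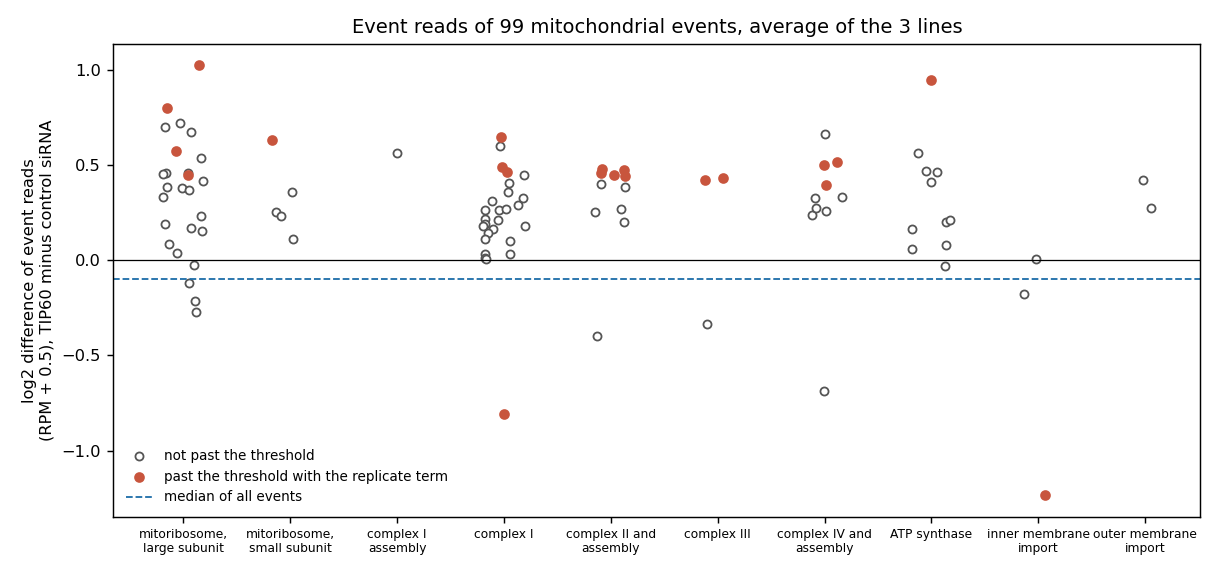
log2 difference of event reads (RPM + 0.5), TIP60 siRNA minus control siRNA, average of the 3 lines, for the 99 events by complex; filled points passed the threshold with the replicate term and the dashed line is the median of all events. Of the 99 points 88 lie above 0, and the 2 filled points below 0 are NDUFC2-KCTD14 and TIMM17B.

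**Figure D5:**
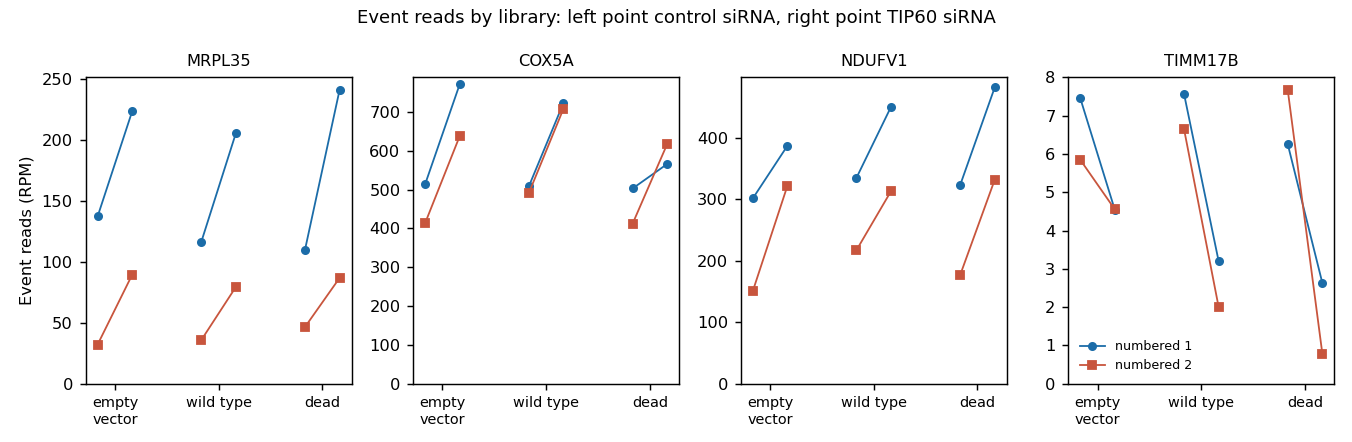
Event reads in RPM of MRPL35, COX5A, NDUFV1 and TIMM17B in the 12 libraries, with lines joining the control-siRNA (left) and TIP60-siRNA (right) library of 1 cell line and replicate number. All 6 lines rise for MRPL35, COX5A and NDUFV1, and all 6 fall for TIMM17B.

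Between constructs under control siRNA, 0 members and 0.0% of all events passed the threshold for event reads in either comparison with empty vector, with and without the replicate term, and 0 members had an unadjusted p under 0.05. The median of the members was 0.02 for wild-type TIP60, against 0.04 over all events, and 0.04 for catalytically dead TIP60, against 0.

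Other genes of mitochondrial translation, mitochondrial RNA handling, respiratory chain assembly, coenzyme Q synthesis and import, with symbols outside the 9 starts of the rule, gave 62 events of 37 genes. Of these, 40 were tested for inclusion, and 0 passed the threshold in limma in any comparison, with and without the replicate term. For event reads 45 of the 62 were above 0 in the average of the 3 lines, with a median of 0.24, and 11 rose and 1 fell with the replicate term, against 6.03% and 10.7% of all events.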

How the data were processed

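RNA was extracted with TRIzol and sequenced from TruSeq stranded mRNA libraries, per the labels' protocols. Reads were aligned with STAR to hg38 per the submitters' processing notes, with no version in the sources used here. The deposited tables hold, per the file headers, a fraction (MISO's posterior mean for inclusion, rounded to 2 decimals, with interval bounds) and a text field with the number of reads fitting either form, both or neither. Events were matched to GENCODE 29. Inclusion levels were compared with limma 3.58.1 in R 4.3.3 (1 factor of 6 groups, variance trend on mean log2 isoform-specific reads, robust; two-sided) over the 2695 events with at least 10 isoform-specific reads in each library. Event reads were compared as log2(RPM + 0.5) over 4992 events. Benjamini-Hochberg adjustment covered every event tested, and adjusted p under 0.05 counted as a call. Scripts were tested on simulated data.

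Libraries of the same replicate number deviated together (r of 0.706 to 0.779 for inclusion and 0.583 to 0.896 for event reads over 15 pairs of groups). The numbers thus pair the libraries, and the replicate term is given where it changed a call or count. Alternatives were a stricter or no read minimum, log2 odds, read shares, quasi-binomial models, other variance settings, scaling, pseudocount and filter, and leaving out each library. Members and lists were chosen with earlier results of these data known. Named singly are events past a threshold, those of smallest p in each comparison, those nearest 0.5 or lowest in level, and separated events; TIMM9, NDUFB4, SDHC's exon of 102 nt, UQCRC2 and the longer exon of COX7A2 were added after their values were seen.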

Additional observations from a re-analysis of the deposited data

How the results depend on the processing

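For inclusion, 0 members were called in each of the 8 comparisons under every alternative run. For event reads in the average of the 3 lines, the count moved from 0 to 21 with the replicate block; the other comparisons of event reads stayed at 0, and leaving out each library in turn, without the block, gave 0 calls each time. With the block kept (added after seeing the data), leaving out each library gave 6 to 26 calls. The libraries pair by number, so that the blocked fit takes the split between the sets out of the spread. The median log2 difference of the members in event reads ranged from 0.18 to 0.43 when each library was left out (lowest without the empty-vector control library numbered 2, highest without the one numbered 1); it was 0.29 and 0.32 within the sets (added after seeing the data) and 0.27 with 1 value a gene. The block changed no other call. The count of events separated in at least 2 lines went from 1 to 0 on read shares, where the share of MRPL33 reads without the exon moved by less than 0.1; the level also uses reads fitting both forms. The MRPL33 difference ranged from -0.263 to -0.177 when each library was left out. Among 36 named inclusion values, 1 changed sign when a library was left out: that of ATP5MD in catalytically dead TIP60 cells was 0.1 without the control library numbered 2, and -0.43 without the control library numbered 1. None of the 20 named values of event reads did so, although without the block that of ATP5PD ranged from 0.02 to 1.87, and those of COX5A (123-nt exon), MRPL2, MRPL35, MRPL53, NDUFA10, SDHD (117-nt exon) and UQCRB moved by over 1.5 times for at least 1 library. Depth limits the events whose skipped form has few reads.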
